A study of Mus musculus with 6 samples.

Results

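The genes described here are 7 genes of the TGF-beta and activin pathway, Tgfb3, Inhba, Tgfbr1, Ldlrad4, Smurf1, Id3 and Cdkn2b, measured in mouse T cells that met the inhibitory ligand BTNL2. Every probe set annotated to them was taken, 13 of 45037 probe sets and 7 of 17097 genes. They were selected on the differences between the 3 groups on these same arrays, so their values are a description and carry no test. In the BTNL2 wells the ligand genes Tgfb3 and Inhba had the lowest signal of the 3 groups. There the receptor gene Tgfbr1, the inhibitor gene Ldlrad4 and the target genes Id3 and Cdkn2b had the highest, all by the brightest probe set of each gene. The inhibitor gene Smurf1 was highest there by its brightest probe set, but not by its second one.

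The cells were CD4+CD25- T cells from female C57BL/6 mice, taken from spleen by one label and from spleen and lymph nodes by another. They spent 4 days on plates coated with proteins that bind T cell receptors. The BTNL2 wells carried an antibody to CD3 at 2 µg/ml, which triggers the T cell receptor, B7-2.Fc at 3 µg/ml, the ligand of CD28 and CTLA-4, and BTNL2.Fc at 11 µg/ml, a butyrophilin-like relative of the B7 proteins. The B7-2 wells carried the same antibody and B7-2.Fc with control IgG. The anti-CD3 wells carried the antibody with control IgG and neither ligand. All 3 groups also received recombinant human TGF-beta at 0.36 ng/ml and recombinant mouse IL-2 at 10 ng/ml. No array therefore shows cells without added TGF-beta, and none shows BTNL2 without B7-2. Each group had 2 cultures with 1 array each, and nothing says that the duplicates came from separate animals, so errors and p-values cover only how far these cultures and arrays differ.

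TGF-beta and activin are secreted dimers that bind a type II receptor, which then phosphorylates a type I receptor. The type I receptor phosphorylates Smad2 and Smad3, which join Smad4, enter the nucleus and bind DNA at short CAGAC boxes, while inhibitory Smads, ubiquitin ligases and corepressors limit the signal. In CD4+ T cells TGF-beta restrains growth and effector genes and, with T cell receptor signals, induces Foxp3.

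Promoter sequence was sought for all of the 7 genes except Ldlrad4, which was not looked up. It was found for 5 of them, and Tgfb3 had no entry. CAGAC or its complement GTCTG stood in the 250 bases before the start in 42.2% of 32851 RefSeq promoters of GRCm38.p6. Shown 5′ to 3′ on the strand of the gene, with these letters in capitals, are the promoter of the ligand gene Inhba, which had its lowest signal with BTNL2, those of Id3 and Cdkn2b, which had their highest, and that of Smurf1, which had its highest by 1 of its 2 probe sets.
Inhba, chr13:16011601-16011850, plus strand: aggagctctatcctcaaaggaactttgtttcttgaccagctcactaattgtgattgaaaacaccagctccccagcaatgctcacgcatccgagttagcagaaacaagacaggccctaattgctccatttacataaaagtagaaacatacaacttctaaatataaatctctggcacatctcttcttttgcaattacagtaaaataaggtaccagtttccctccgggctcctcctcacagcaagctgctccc
Id3, chr4:136143572-136143821, plus strand: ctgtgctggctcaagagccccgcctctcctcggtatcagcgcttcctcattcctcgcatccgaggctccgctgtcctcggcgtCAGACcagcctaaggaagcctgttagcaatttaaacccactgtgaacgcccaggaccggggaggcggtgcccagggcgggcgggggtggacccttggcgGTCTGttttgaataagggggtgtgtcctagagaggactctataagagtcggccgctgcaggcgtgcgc
Cdkn2b, chr4:89311033-89311282, minus strand: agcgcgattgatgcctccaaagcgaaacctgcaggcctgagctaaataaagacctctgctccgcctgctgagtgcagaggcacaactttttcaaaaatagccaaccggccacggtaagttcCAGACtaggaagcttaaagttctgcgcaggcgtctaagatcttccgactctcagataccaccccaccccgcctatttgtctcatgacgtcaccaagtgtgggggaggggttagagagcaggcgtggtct
Smurf1, chr5:144965831-144966080, minus strand: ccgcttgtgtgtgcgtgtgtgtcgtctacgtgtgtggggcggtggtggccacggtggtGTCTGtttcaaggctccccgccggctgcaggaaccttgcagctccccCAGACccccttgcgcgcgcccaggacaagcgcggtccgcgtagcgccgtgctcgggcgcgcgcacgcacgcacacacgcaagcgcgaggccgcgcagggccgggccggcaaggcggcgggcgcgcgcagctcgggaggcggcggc
The Inhba window held 0 matches, Id3 and Smurf1 held 2 each, and Cdkn2b held 1. Tgfbr1 has 2 listed starts on chromosome 4, with 0 matches before one and 1 before the other. A match describes the letters and not a binding site, and a window without one says nothing about Smad binding elsewhere.

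Values are RMA intensities, on a linear scale, of the probe set with the highest mean log2 signal for each gene. Errors of log2 changes are standard errors from the limma fit over all probe sets. The median intensity per array was 18.45 to 18.77, and the nonspecific control probe sets reached at most 5.02 to 5.99. The 3' to 5' signal ratio for Gapdh, a measure of RNA integrity, was 1.40 and 1.43 on the BTNL2 arrays, 1.28 and 1.33 on the B7-2 arrays, and 1.37 and 1.27 on the anti-CD3 arrays, and its part in the results was not tested. For 18S ribosomal RNA the probe set was lowest on the second anti-CD3 array, at 683, against 1308 to 2019 elsewhere. Fewer cells of a type and less RNA per cell cannot be told apart in these bulk samples.

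Of the 7 genes, 5 were higher and 2 lower on both BTNL2 arrays than on both B7-2 arrays, with 0 overlapping. Over all 17097 genes, arrays of these groups failed to overlap in 58.9%, 27.9% higher and 31.0% lower. For B7-2 against anti-CD3 wells, 1 gene was higher, 4 were lower and 2 overlapped, where 60.1% of all genes did not overlap, 29.3% higher and 30.8% lower. For BTNL2 against anti-CD3 wells, 5 were higher and 2 lower, where 63.0% of all genes did not overlap, 30.8% higher and 32.2% lower. The members' median log2 changes were 1.44, -0.44 and 0.48 in these comparisons, beside -0.011, -0.005 and -0.005 over all genes. Over all 13 probe sets the medians were 0.83, -0.21 and 0.48. Of these probe sets 9 were higher, 2 lower and 2 overlapping in BTNL2 against B7-2 wells, 1, 6 and 6 in B7-2 against anti-CD3 wells, and 8, 3 and 2 in BTNL2 against anti-CD3 wells. Each pair of comparisons shares a group of arrays, and the choice of the members fixed these counts.

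**Figure D1:**
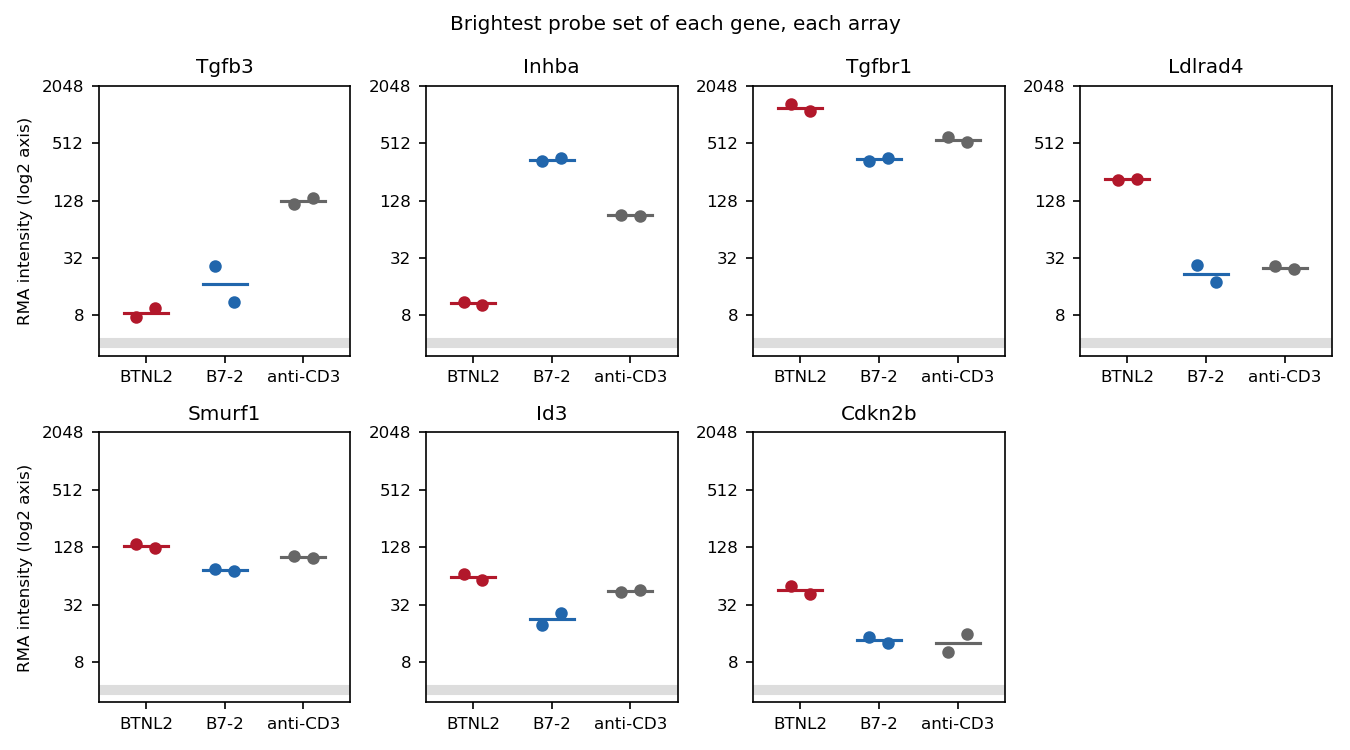
Intensity of the brightest probe set of each of the 7 genes on every array (vertical axis, log scale), with BTNL2, B7-2 and anti-CD3 wells from left to right, geometric means as lines and the range of the nonspecific control medians as a grey band. Tgfb3 and Inhba sit at 7.62 to 11.1 on the BTNL2 arrays, while the other 5 genes have their highest points there.

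Tgfb3 encodes TGF-beta 3, a ligand that signals through Tgfbr1 and Tgfbr2. It read 7.62 and 9.48 on the BTNL2 arrays, 26.1 and 11.1 on the B7-2 arrays, and 118 and 136 on the anti-CD3 arrays. Both groups with B7-2 lay far below the anti-CD3 wells, and the B7-2 duplicates stood wide apart, the second close to the BTNL2 arrays. The log2 change was -3.90 ± 0.35 for BTNL2 against anti-CD3 wells, a 14.9-fold lower signal, and -2.90 ± 0.35 for B7-2 against anti-CD3 wells, 7.46-fold lower. Between BTNL2 and B7-2 wells it was -1.0 ± 0.35. That value became -0.39 when the first B7-2 array was left out and -1.62 when the second was. Leaving out the same arrays gave -3.51 and -2.28 for B7-2 against anti-CD3 wells. The order was BTNL2 below B7-2 below anti-CD3, with the step between BTNL2 and B7-2 wells set mostly by the first B7-2 array.

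Inhba encodes the beta A subunit that forms activin A as a homodimer, and inhibin A with the Inha product. It read 11.1 and 10.3 on the BTNL2 arrays, 333 and 358 on the B7-2 arrays, and 91.4 and 87.6 on the anti-CD3 arrays. The groups stood apart with no overlap, with B7-2 wells highest and BTNL2 wells near the low end of the array. BTNL2 against B7-2 wells gave a log2 change of -5.02 ± 0.10, 32.3-fold lower. It was 1.95 ± 0.10 for B7-2 against anti-CD3 wells, 3.86-fold higher, and -3.07 ± 0.10 for BTNL2 against anti-CD3 wells, 8.38-fold lower. A second Inhba probe set was dim throughout, at 7.40 and 9.02, 9.47 and 7.86, and 8.71 and 8.19 in the BTNL2, B7-2 and anti-CD3 wells. It overlapped in every comparison, so averaging both probe sets gave log2 changes of -2.55, 0.99 and -1.56. Inhba was the only one of the 7 genes whose brightest probe set was higher in B7-2 than in anti-CD3 wells without overlap.

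Tgfbr1 encodes the type I receptor ALK5, which phosphorylates Smad2 and Smad3. Its brightest probe set read 1335 and 1109 on the BTNL2 arrays, 334 and 363 on the B7-2 arrays, and 596 and 528 on the anti-CD3 arrays. The BTNL2 wells were highest and the B7-2 wells lowest, with no overlap. Log2 changes were 1.80 ± 0.13 for BTNL2 against B7-2 wells, 3.49-fold higher, -0.69 ± 0.13 for B7-2 against anti-CD3 wells, 1.61-fold lower, and 1.12 ± 0.13 for BTNL2 against anti-CD3 wells, 2.17-fold higher. The other Tgfbr1 probe sets were dim, at 5.25 to 14.4 on all arrays, and one of them was also highest on both BTNL2 arrays, at 14.4 and 11.4. Averaged over its 3 probe sets, the log2 changes were 0.93, -0.23 and 0.69 in the same comparisons.

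Ldlrad4 encodes a membrane protein that holds Smad2 and Smad3 away from the active receptor. Its brightest probe set read 213 and 219 on the BTNL2 arrays, 26.8 and 17.8 on the B7-2 arrays, and 26.2 and 24.4 on the anti-CD3 arrays. The BTNL2 wells stood alone and high, and the other groups overlapped. Its log2 change was 3.30 ± 0.18 for BTNL2 against B7-2 wells, 9.87-fold higher, and 3.09 ± 0.18 for BTNL2 against anti-CD3 wells, 8.53-fold higher. All 3 Ldlrad4 probe sets were higher on both BTNL2 arrays than on the other 4. The other probe sets gave log2 changes of 2.48 ± 0.19 and 1.27 ± 0.10 against B7-2 wells, and 2.38 ± 0.19 and 1.04 ± 0.10 against anti-CD3 wells, the dimmer giving the smaller change. The dimmest was also lower in B7-2 than in anti-CD3 wells without overlap, with a log2 change of -0.23 ± 0.10. Averaged over the 3 probe sets, the changes were 2.35 against B7-2 wells and 2.17 against anti-CD3 wells.

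Smurf1 encodes a ubiquitin ligase that marks Smads and, with Smad7, the type I receptor for degradation. Its brightest probe set read 137 and 126 on the BTNL2 arrays, 75.6 and 72.4 on the B7-2 arrays, and 103 and 98.1 on the anti-CD3 arrays. The groups did not overlap, but the differences were the smallest among the 7 genes in BTNL2 against B7-2 wells. Log2 changes were 0.83 ± 0.10 for BTNL2 against B7-2 wells, -0.44 ± 0.10 for B7-2 against anti-CD3 wells and 0.38 ± 0.10 for BTNL2 against anti-CD3 wells. A second probe set of like brightness read 95.1 and 89.8, 80.3 and 80.5, and 105 and 97.2 in the BTNL2, B7-2 and anti-CD3 wells. Its changes were 0.20 ± 0.10, -0.33 ± 0.10 and -0.13 ± 0.10, so the probe sets differ in direction between BTNL2 and anti-CD3 wells. Averaging both gave 0.51, -0.39 and 0.13.

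**Figure D2:**
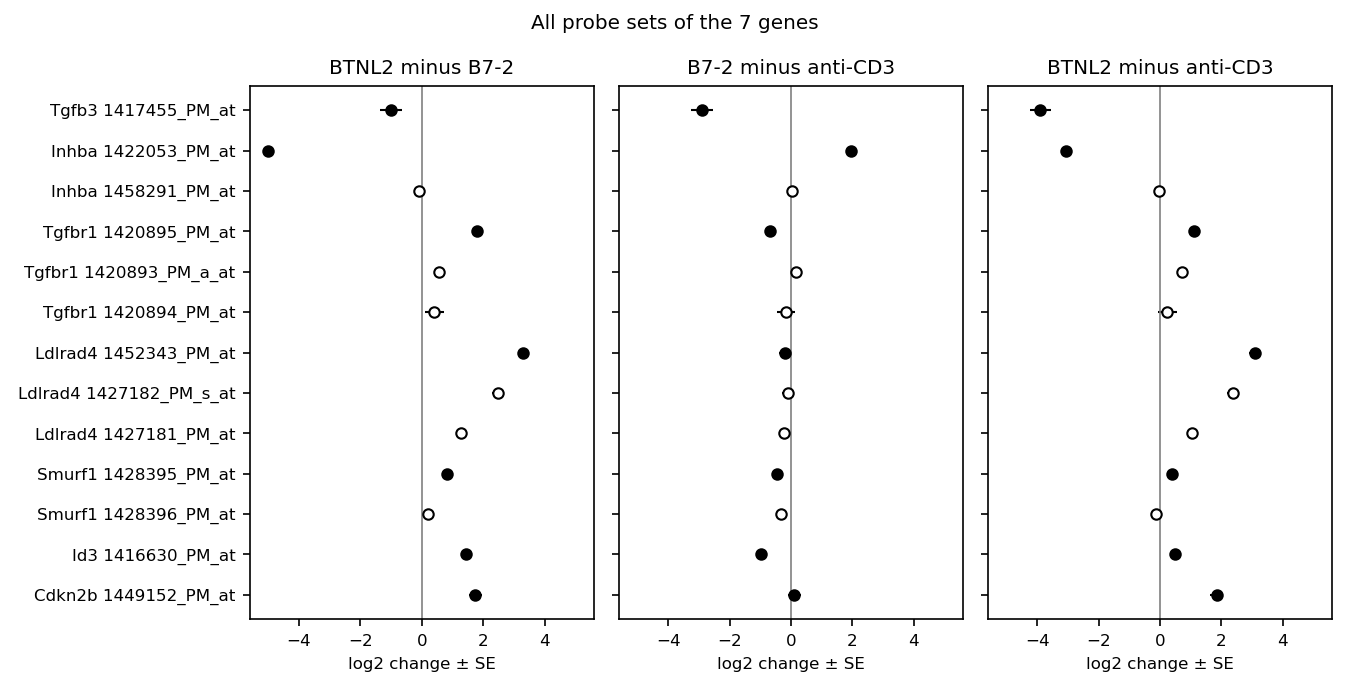
Log2 change with standard error (horizontal axis) of all 13 probe sets of the 7 genes in the 3 comparisons, the filled point marking the brightest probe set of a gene. The Ldlrad4 probe sets lie on one side in both BTNL2 comparisons, while the second probe sets of Inhba and Smurf1 lie nearer to 0 than the brightest.

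Id3 encodes an inhibitor of E proteins, a target of BMP and TGF-beta signals that is also controlled by the T cell receptor. It read 66.7 and 57.5 on the BTNL2 arrays, 19.7 and 26.3 on the B7-2 arrays, and 43.3 and 45.6 on the anti-CD3 arrays. The order was the same as for Tgfbr1 and Smurf1, with BTNL2 wells highest, B7-2 wells lowest and no overlap. Log2 changes were 1.44 ± 0.15 for BTNL2 against B7-2 wells, 2.72-fold higher, -0.96 ± 0.15 for B7-2 against anti-CD3 wells and 0.48 ± 0.15 for BTNL2 against anti-CD3 wells. Its promoter, shown above, is one of those with 2 CAGAC or GTCTG matches.

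Cdkn2b encodes p15INK4b, an inhibitor of the cyclin D kinases and a classical TGF-beta target in growth arrest of epithelial cells. It read 49.5 and 41.5 on the BTNL2 arrays, 14.7 and 12.5 on the B7-2 arrays, and 10.1 and 15.8 on the anti-CD3 arrays. The BTNL2 wells stood alone, and the other groups overlapped. The log2 change was 1.74 ± 0.21 for BTNL2 against B7-2 wells, 3.33-fold higher, and 1.84 ± 0.21 for BTNL2 against anti-CD3 wells, 3.59-fold higher. This pattern is like that of the brightest Ldlrad4 probe set, where B7-2 and anti-CD3 wells also overlapped.

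Similar profiles were sought among all genes except predicted genes and clones. The most similar genes had the smallest root mean square difference of mean-centred log2 values over the 6 arrays. For Smurf1 they were Stim2 (0.03), Erbin (0.03) and Ifi47 (0.04), and for Tgfbr1 they were Phlpp1 (0.06), Rras2 (0.07) and Lfng (0.08). For Id3 they were Bach1 (0.07), Ddx58 (0.08) and Acvr1b (0.08), the gene of an activin type I receptor. For Cdkn2b they were Kcnk6 (0.18), Ccl9 (0.22) and Foxp3 (0.23), and for Ldlrad4 they were Icosl (0.23), Ccn3 (0.27) and Samd9l (0.27). Tgfb3 was nearest to Dixdc1 (0.28), Ypel4 (0.36) and H2-Q1 (0.36), and Inhba to Slc7a3 (0.30), Timp1 (0.40) and Tpbg (0.44). None of the 7 genes was among the 3 nearest to another.

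The other genes of the pathway were taken from 7 lists, with 97 genes measured, and were tested with limma, with Benjamini-Hochberg adjustment over all 17097 genes. In BTNL2 against B7-2 wells 28 rose and 9 fell, 38.1% of those measured, beside 20.4% of all genes (9.52% higher and 10.8% lower), and the number called was 23 without the second B7-2 array and 24 without the first BTNL2 array. In B7-2 against anti-CD3 wells 12 rose and 14 fell, 26.8%, beside 24.5% of all genes (11.2% higher and 13.3% lower), and the number called was 14 without the first anti-CD3 array and 17 without the first B7-2 array. In BTNL2 against anti-CD3 wells 28 rose and 13 fell, 42.3%, beside 30.4% of all genes (14.2% higher and 16.2% lower), and the number called was 24 without the first anti-CD3 array and 26 without the first BTNL2 array. Median log2 changes were 0.09, -0.05 and 0.07. The lists were chosen with earlier results of these data known, so their shares of called genes are a description and no test of the pathway.

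**Figure D3:**
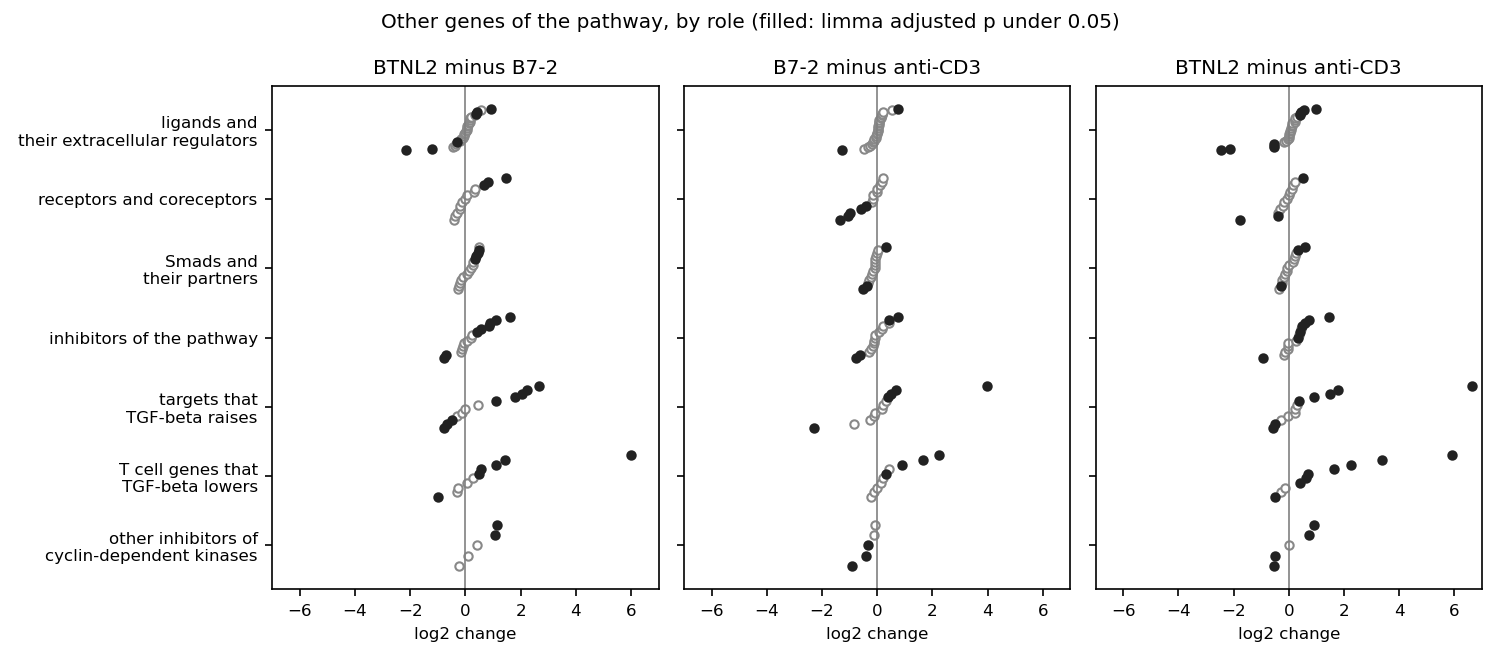
Log2 change (horizontal axis) of each measured gene of the 7 pathway lists in the 3 comparisons, filled where limma's adjusted p was under 0.05. In BTNL2 against B7-2 wells 28 points are filled to the right of 0 and 9 to the left.

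Among 27 measured ligands and extracellular regulators, 3 rose and 3 fell in BTNL2 against B7-2 wells, 22.2% beside 20.4% of all genes. Inha, the inhibin alpha subunit that pairs with the Inhba product, read 7.2 and 8.9 on the BTNL2 arrays and 37.8 and 33.4 on the B7-2 arrays, a log2 change of -2.16 ± 0.13 (adjusted p = 7.39e-05). It read 32.7 and 36.6 on the anti-CD3 arrays, which overlapped the B7-2 arrays, while those of Inhba did not. Ltbp3, a protein that holds latent TGF-beta in the matrix, fell by 1.20 on the log2 scale in BTNL2 against B7-2 wells (adjusted p = 0.000246) and fell by 1.27 in B7-2 against anti-CD3 wells (adjusted p = 0.000411), the same order as Tgfb3. Averaged over its probe sets these changes were -0.48 and -0.57, both still called. Nrros, which holds latent TGF-beta on cells, rose 1.88-fold in BTNL2 against B7-2 wells (adjusted p = 0.000949). Furin, the protease that cuts the TGF-beta precursor, rose 1.67-fold in B7-2 against anti-CD3 wells (adjusted p = 0.00208). Tgfb1, the main TGF-beta gene of T cells, averaged 519 ± 30.8 in BTNL2 wells and 401 ± 16.3 in B7-2 wells (SD, n = 2 each), with an adjusted p of 0.0294. Across the alternatives this p ran from 0.00342 to 0.144, and leaving out any 1 of the 6 arrays lifted it past the threshold.

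Of the 13 receptor and coreceptor genes, 3 rose and 0 fell in BTNL2 against B7-2 wells, 23.1% beside 20.4% of all genes. In B7-2 against anti-CD3 wells 0 rose and 5 fell, 38.5% beside 24.5%. In BTNL2 against anti-CD3 wells 1 rose and 2 fell, 23.1% beside 30.4%. Acvr1b, the activin type I receptor ALK4, averaged 206 ± 33.9 in BTNL2 wells and 74.1 ± 7.31 in B7-2 wells (SD, n = 2 each), a log2 rise of 1.47 ± 0.13 (adjusted p = 0.000397). With its probe sets averaged this rise was 0.92, still called. In BTNL2 against anti-CD3 wells Acvr1b rose by 0.5 on the log2 scale (adjusted p = 0.0275), and by 0.32 with its probe sets averaged, no longer called. Against 145 ± 0.21 in anti-CD3 wells the B7-2 wells fell by 0.97 on the log2 scale (adjusted p = 0.00255). Acvr2a, an activin type II receptor, fell by 1.04 on the log2 scale in B7-2 against anti-CD3 wells (adjusted p = 0.00281). It rose 1.58-fold in BTNL2 against B7-2 wells (adjusted p = 0.0198, 0.000447 to 0.112 across alternatives), a call lost without the first BTNL2 or the first B7-2 array. Tgfbr2, the type II receptor that pairs with Tgfbr1, rose 1.77-fold in BTNL2 against B7-2 wells (adjusted p = 0.0125, 0.000133 to 0.151 across alternatives), a call lost without either B7-2 array and with its probe sets averaged. Neither Acvr2a nor Tgfbr2 was called in BTNL2 against anti-CD3 wells, with log2 changes of -0.38 and 0.22 (adjusted p = 0.097 and 0.386). Acvrl1, a type I receptor known from endothelium, fell by 1.76 on the log2 scale in BTNL2 against anti-CD3 wells (adjusted p = 0.000314) and fell by 1.34 in B7-2 against anti-CD3 wells (adjusted p = 0.00168).

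**Figure D4:**
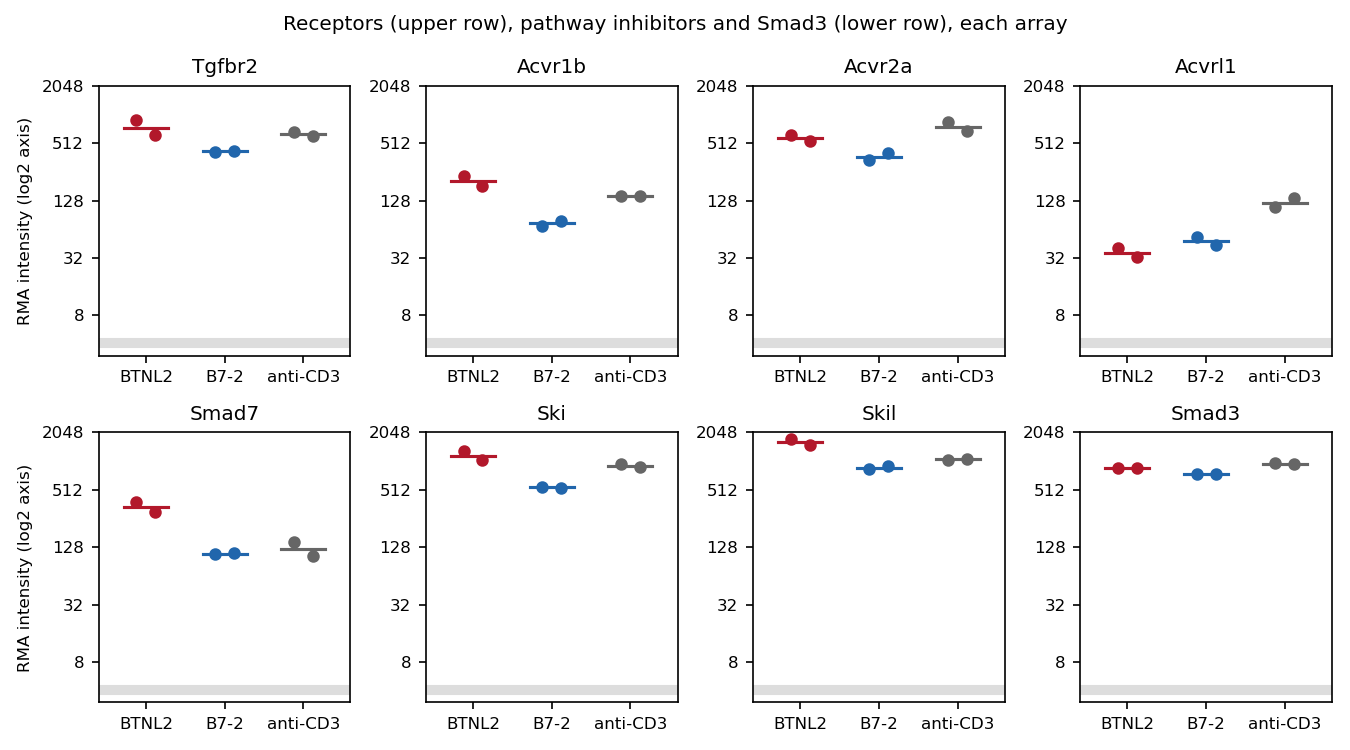
Intensity (vertical axis, log scale) on every array of 4 receptor genes, Tgfbr2, Acvr1b, Acvr2a and Acvrl1, and of Smad7, Ski, Skil and Smad3, with BTNL2, B7-2 and anti-CD3 wells from left to right and lines for geometric means. Acvr1b reads 230 and 182 on the BTNL2 arrays, 68.9 and 79.2 on the B7-2 arrays and 144 and 145 on the anti-CD3 arrays.

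Of the 15 measured genes listed as inhibitors, 6 rose and 2 fell in BTNL2 against B7-2 wells, 53.3% beside 20.4% of all genes. Those that fell were Wwp1 and Bambi, with log2 changes of -0.71 and -0.78 (adjusted p = 0.00158 and 0.0023). The list also holds Rnf111, Usp4 and Usp15, known to promote the signal: Rnf111 encodes Arkadia, a ubiquitin ligase that degrades Smad7, Ski and Skil, and the others encode deubiquitinases of the receptor. Of these 3, singled out after their values were seen, Rnf111 was among the 6 that rose, with a log2 change of 0.43 (adjusted p = 0.0354, 0.00239 to 0.166 across alternatives), a call lost without the first BTNL2 array or either B7-2 array and with every probe set tested. Smad7, the inhibitory Smad that recruits Smurf proteins to the receptor, averaged 342 ± 57.4 in BTNL2 wells and 110 ± 1.88 in B7-2 wells (SD, n = 2 each), a log2 rise of 1.63 ± 0.18 (adjusted p = 0.00102). It also rose 2.77-fold in BTNL2 against anti-CD3 wells (adjusted p = 0.00107), like Ldlrad4. Between B7-2 and anti-CD3 wells its log2 change was -0.16 ± 0.18, which did not pass (adjusted p = 0.598). Ski and Skil, corepressors of Smads, rose 2.16-fold and 1.83-fold in BTNL2 against B7-2 wells (adjusted p = 0.00101 and 0.00125). In BTNL2 against anti-CD3 wells Skil was called too (log2 change 0.59, adjusted p = 0.00463), but Ski was not (0.36, adjusted p = 0.0691). Ski fell by 0.75 on the log2 scale in B7-2 against anti-CD3 wells (adjusted p = 0.00536). Of 15 measured Smads and partners, 4 rose and 0 fell in BTNL2 against B7-2 wells, 26.7% beside 20.4% of all genes. Smad2, Smad3 and Smad4 were not among them, with log2 changes of 0.28, 0.22 and 0.14 (adjusted p = 0.0878, 0.121 and 0.602). Smad3 passed where limma's prior variance followed intensity (adjusted p = 0.0211, from 0.0211 to 0.605 across alternatives).

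Of 12 measured targets that TGF-beta raises, 5 rose and 3 fell in BTNL2 against B7-2 wells, 66.7% beside 20.4% of all genes. This list and that of genes that TGF-beta lowers were drawn up with earlier results of these data known. Their shares are therefore a description and no test. Ccn2, a matrix protein gene, rose 2.16-fold (adjusted p = 0.000189), Foxp3 rose 4.10-fold (adjusted p = 6.59e-05), and Nt5e, the ectoenzyme CD73, rose 4.70-fold (adjusted p = 5.92e-05). Those that fell were Klf11, Junb and Id2, with log2 changes of -0.67, -0.78 and -0.5 (adjusted p = 0.00403, 0.00432 and 0.0407). Averaged over its probe sets the log2 change of Nt5e was 0.85, against 2.23 for the brightest, and was still called. In BTNL2 against anti-CD3 wells Nt5e was not called (log2 change -0.03, adjusted p = 0.882), while Ccn2 and Foxp3 rose there too (adjusted p = 4.35e-05 and 7.92e-05). Nt5e fell by 2.27 on the log2 scale in B7-2 against anti-CD3 wells (adjusted p = 0.000167). Of 10 measured T cell genes that TGF-beta lowers, 5 rose and 1 fell in BTNL2 against B7-2 wells, 60.0% beside 20.4% of all genes. The gene that fell was Myc (log2 change -1.0, adjusted p = 0.0135). Eomes, a T-box factor, was 63.8-fold higher (adjusted p = 5.55e-06) and Ifng 2.16-fold higher (adjusted p = 0.000837). Genes of both lists thus rose in the same wells. Among 5 inhibitors of cyclin-dependent kinases other than Cdkn2b, 2 rose and 0 fell in BTNL2 against B7-2 wells. In BTNL2 against anti-CD3 wells 2 rose and 2 fell, 80.0% beside 30.4% of all genes. Those that fell were Cdkn2d and Cdkn1b, with log2 changes of -0.54 and -0.5 (adjusted p = 0.00273 and 0.0271). Cdkn2c, which encodes p18INK4c, rose 2.21-fold in BTNL2 against B7-2 wells (adjusted p = 0.00032). Cdkn2a, next to Cdkn2b on chromosome 4, read 14.6 and 17.8 on the BTNL2 arrays and 8.9 and 6.8 on the B7-2 arrays (adjusted p = 0.0183, 0.00118 to 0.0937 across alternatives), a call lost without either BTNL2 array or the second B7-2 array.

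Markers of other cells moved in the same wells, and their part in these results was not tested. In BTNL2 against B7-2 wells, to which the marker counts refer, 20.4% of all genes were called, 9.52% higher and 10.8% lower. Both CD8 T cell markers rose in BTNL2 against B7-2 wells, their summed intensity being 1016 to 1073 in BTNL2 wells, 137 to 161 in B7-2 wells and 370 to 385 in anti-CD3 wells. Of 4 measured B cell markers 3 rose, with sums of 572 to 737, 271 to 291 and 527 to 563 in the same groups, and Pax5 read 6.3 to 8.0 on all arrays. Of 3 NK cell markers 1 rose, with sums of 201 to 224, 63.6 to 69.8 and 77.4 to 84.7, and Ncr1 read 4.8 to 6.6. Of 6 measured T cell markers 1 fell, with sums of 12455 to 12483, 12546 to 12757 and 15754 to 16045, and Cd4 itself read 1103 and 1159, 1407 and 1320, and 1704 and 1557. Of 3 epithelial markers 1 rose and 1 fell, with sums of 66.6 to 66.8, 92.7 to 114 and 158 to 171. The summed intensity of 6 macrophage and monocyte markers was 61.1 to 69.2 over all arrays, and that of 4 stromal markers 45.4 to 53.9, with the groups overlapping. Of 3 measured dendritic cell markers 1 rose, with sums of 54.1 to 57.4 in BTNL2 wells, 43.7 to 48.6 in B7-2 wells and 53.9 to 55.4 in anti-CD3 wells. Of 3 endothelial markers 1 rose, with sums of 32.4 to 35.8, 28.9 to 31.8 and 31.6 to 33.0. Summed markers of megakaryocytes, red cells and mast cells read 33.8 to 36.7, 36.6 to 39.3 and 34.4 to 38.3.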

How the data were processed

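RNA from 6 cultures was amplified from small amounts of total RNA, labelled with biotin and hybridised to 1 array each, per the labels' protocols. The authors deposited probe set intensities on a linear scale, made with RMA per the submitters' processing notes. Which software, version and chip definition were used is not given in the sources used here. RMA makes array distributions alike and compresses changes of dim probe sets. Amplification can change relative signals.

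Deposited intensities were log2 transformed. Of 45141 probe sets, 104 were controls. Of the rest 28898 had 1 gene symbol, 551 several and 15588 none in the platform annotation. The GRCm38.p6 gene table, matched on Entrez identifiers, gave current symbols to 28689 of them. The probe set with the highest mean log2 signal stood for each gene, giving 17097 genes. One limma model (lmFit and eBayes, limma 3.58.1, R 4.3.3) held all 6 arrays with group as its only term, 3 residual and 4.02 prior degrees of freedom. A gene was called where its two-sided p, adjusted over all genes by Benjamini-Hochberg, was under 0.05. The number of arrays limits the precision.

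The members and lists were chosen with earlier results of these data known. Beside the members, the text draws on the 3 genes of each list with the smallest p in each comparison, on Tgfb1, Tgfbr2, Smad2, Smad3, Smad4 and Smad7, and on the 3 most similar profiles per member. The 12 listed pathway genes without a probe set of 1 symbol were not analysed here. Promoters came from RefSeq (GRCm38.p6). Alternatives changed the variance prior, the arrays fitted, a filter on dim genes (40th percentile), the scaling, the probe sets per gene, the replicate block and each array in turn.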

Additional observations from a re-analysis of the deposited data

How the results depend on the processing

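The 2 arrays per group limit every value. Leaving out each array in turn, the genes called numbered 2142 to 3015 in BTNL2 against B7-2 wells, 2454 to 4128 in B7-2 against anti-CD3 wells and 3726 to 4870 in BTNL2 against anti-CD3 wells, beside 3482, 4190 and 5197 with all arrays. The pathway list genes called numbered 23 to 33, 14 to 26 and 24 to 37, beside 37, 26 and 41. An array left alone in its group is assumed to vary like the other groups. Under the other alternatives the counts stayed within 1.5 times. Same-numbered arrays did not deviate together (r = -0.064 to -0.001 across 17097 genes), so the numbers were not taken as pairs. With the replicate block, 3160, 3765 and 4827 genes and 35, 22 and 35 pathway list genes were called. Among the named genes the block ended the calls of Smad5 and Cdkn2d in B7-2 against anti-CD3 wells and of Eng and Tgfbrap1 in BTNL2 against anti-CD3 wells.

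Of the named pathway genes called, 14 of 21, 13 of 21 and 16 of 22 were called under every alternative in these comparisons. Smad5, called in B7-2 against anti-CD3 wells at a log2 change of 0.32, turned to -0.15 when its probe sets were averaged, and the cause was not tested. Among others, averaging probe sets moved the changes of Inhba, Tgfbr1, Ldlrad4, Smurf1, Ltbp3, Nt5e and Acvr1b, as given with each, without turning their direction. The log2 change of Tgfbr2 in BTNL2 against B7-2 wells went from 0.82 to 0.26, and its call was lost.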

Other observations

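The nearest measured protein-coding gene on each side of the 7 members in the GRCm38.p6 gene order, 14 genes in all, was looked at after the data were seen. By limma's adjusted p, 5 of them were called in BTNL2 against B7-2 wells, 3 in B7-2 against anti-CD3 wells and 5 in BTNL2 against anti-CD3 wells, beside 20.4%, 24.5% and 30.4% of all genes. Ift43, an intraflagellar transport gene beside Tgfb3, read 39.4 and 57.0 on the BTNL2 arrays, 186 and 177 on the B7-2 arrays, and 330 and 329 on the anti-CD3 arrays. Its groups ran in the order of Tgfb3, with no overlap. Its log2 change was -1.94 in BTNL2 against B7-2 wells (adjusted p = 0.000305, 1.51e-07 to 0.00301 across alternatives). In B7-2 against anti-CD3 wells it was -0.86 (adjusted p = 0.00944, 0.000362 to 0.053 across alternatives), a call lost without the first anti-CD3 array.

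Col15a1, a collagen gene beside Tgfbr1, read 102 and 129 on the BTNL2 arrays, 30.6 and 33.6 on the B7-2 arrays, and 67.1 and 59.2 on the anti-CD3 arrays. Its groups ran in the order of Tgfbr1, with no overlap. Its log2 change was 1.84 in BTNL2 against B7-2 wells (adjusted p = 0.000155) and -0.97 in B7-2 against anti-CD3 wells (adjusted p = 0.00268), and both calls held under every alternative run. Alg2, on the other side of Tgfbr1, was not called in any comparison (adjusted p = 0.118, 0.508 and 0.317).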
